A study of Homo sapiens with 6 samples.

Results

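In DLD-1 cells held under Leptomycin B, adding auxin to degrade the nuclear pore protein TPR left the RNA levels of 10 Wnt pathway genes without a call of change. The set holds 9 genes that are commonly read as targets of beta-catenin (AXIN2, LGR5, ASCL2, NKD1, RNF43, ZNRF3, NOTUM, LEF1 and TCF7) and CTNNB1, which encodes beta-catenin itself. They were taken by symbol from the 58051 genes of the count table after the Ensembl identifiers had been matched to gene names; the list was drawn up with earlier results of these data known. All 10 passed the filter on low values, which 16974 genes passed.

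DLD-1 is a human colorectal adenocarcinoma line that carries a truncated APC. Canonical Wnt signalling acts through the stability of beta-catenin: without a Wnt signal, a destruction complex built on APC and AXIN marks it for degradation, and with a signal, or without working APC, beta-catenin accumulates, enters the nucleus and joins DNA-binding proteins of the TCF/LEF family at target genes. Several targets feed back on the pathway as inhibitors, and others, ASCL2 and LGR5 among them, mark the stem cells at the base of the intestinal crypt.

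The cells were an engineered line in which both TPR alleles carried an auxin-inducible degron with a NeonGreen tag. The TIR1 ligase, which marks degron-tagged proteins for destruction when auxin is present, was encoded at the RCC1 gene. All 6 cultures received 200 nM Leptomycin B, a blocker of the export receptor CRM1, for 3 h according to the incubation label, while the sample titles give 2 h. In 3 of them, called LMB+auxin here, 1 mM auxin was also present for 2 h, taken here as the last 2 h. The 3 without auxin are called LMB. No culture without Leptomycin B and none with auxin but an untagged TPR was analysed here, so effects of the auxin compound and of TPR loss cannot be told apart. The libraries held 28261903 to 35992425 counts.

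TPR RNA, in counts-per-million values scaled by edgeR's TMM factors (CPM), was 163.1, 157.2 and 180.4 in LMB replicates 1 to 3, and 192.5, 185.0 and 186.8 CPM in the LMB+auxin replicates. Its log2 fold change was 0.17, without a call (edgeR adjusted p 0.954, or 0.0136 when replicate numbers were a block, at under 1.3-fold). Auxin acts on the protein, so TPR RNA does not report the depletion. The colon epithelial markers EPCAM, CDH1, VIL1, KRT8, KRT18, KRT20 and CDX2 passed the filter and CDX1 held 1 read in all. The 8 together summed to 7090 to 7212 CPM in LMB and 7042 to 7587 CPM in LMB+auxin. The summed fibroblast markers stayed between 0.608 and 1.20 CPM, the immune markers between 4.17 and 6.90 CPM, and the endothelial markers between 2.84 and 5.66 CPM.

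To show what the TCF/LEF family recognises, the core words that begin with CTTTG and go on with 2 letters, each either A or T, were searched on both strands of the RefSeq promoter windows (GRCh38.p14), which run from 250 bases before a gene's start to 50 bases after it. The table held 6 windows for 4 of the 10 genes: CTNNB1, LEF1, RNF43 with a pair of windows and TCF7 with a pair. A word was present in 1 of the 6, and 13.8% of the 35116 windows in the table held at least 1. That window belonged to the downstream start of TCF7, and its word, CTTTGTT on the opposite strand, began 50 bases before the start. The window of SP5, another beta-catenin target, held 3 words and is shown as a comparison. Capitals mark the words, which overlap no other, and both stretches are on the plus strand, chr5:134123538-134123604 for TCF7 and chr2:170715159-170715289 for SP5.
TCF7: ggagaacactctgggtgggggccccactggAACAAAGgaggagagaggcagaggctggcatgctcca
SP5: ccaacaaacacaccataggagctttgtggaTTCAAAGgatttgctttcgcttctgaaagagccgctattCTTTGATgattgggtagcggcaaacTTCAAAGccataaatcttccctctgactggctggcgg
In SP5 the words began 148, 109 and 84 bases before the start, the first and the last of them on the opposite strand. A match of letters is a description and not a site of binding.

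The 10 genes covered a wide range of levels. Per kb of annotated exon, averaged over the 6 libraries, CTNNB1 stood at 60.7 ± 0.93 CPM per kb (SD, n = 6) and AXIN2 at 60.0 ± 4.75, with overlapping ranges. These highest levels belonged to the pathway's central protein and to the scaffold that limits it. ASCL2 followed at 28.9 ± 1.94 CPM per kb and RNF43 at 20.9 ± 2.24. LEF1, at 11.3 ± 0.487 CPM per kb, and ZNRF3, at 9.71 ± 0.635, overlapped in their ranges. TCF7, at 2.14 ± 0.223 CPM per kb, and NKD1, at 1.45 ± 0.211, lay well below. NOTUM, at 0.726 ± 0.144 CPM per kb, and LGR5, at 0.219 ± 0.047, were the lowest, so of the stem cell genes ASCL2 stood near the top of the order and LGR5 at its end. Apart from the CTNNB1 with AXIN2 and LEF1 with ZNRF3 pairs, no neighbours in the order overlapped in any of the 6 libraries. The lengths are unions of GENCODE 44 exons, which include exons these cells may not use, so the order holds for that length. For AXIN2, 25.3% of those bases are shared with another gene on the same strand. How reads there were counted is not known, so its closeness to CTNNB1 depends on that handling.

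**Figure D1:**
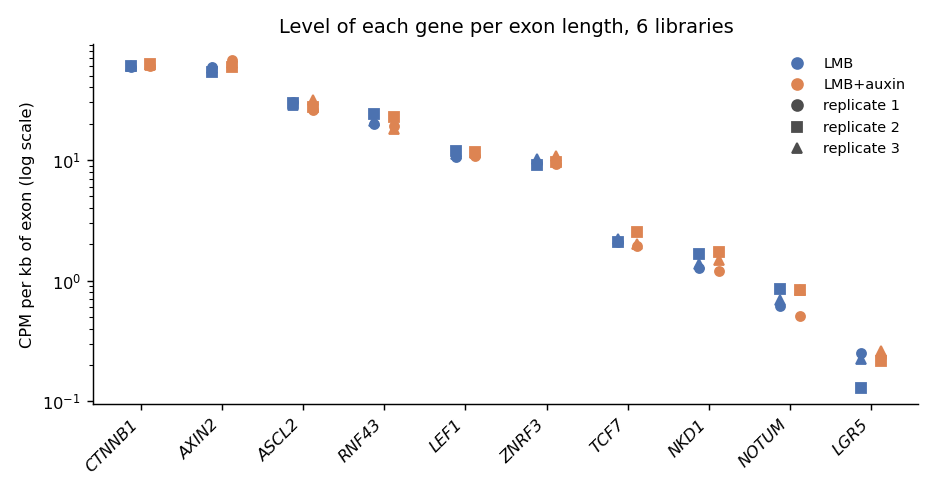
Level of each gene in CPM per kb of annotated exon (log axis), ordered from highest to lowest; each point is 1 of 6 libraries, coloured by group and shaped by replicate number. CTNNB1 and AXIN2 overlapped near 60 CPM per kb, and LGR5 was lowest at 0.219 on average.

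The comparison of LMB+auxin with LMB asks what changes in RNA when TPR is degraded while CRM1 is blocked. Calls used edgeR's quasi-likelihood test with Benjamini-Hochberg adjustment over all 16974 genes and needed an adjusted p under 0.05 and a change of at least 1.3-fold. Of the 10 genes, 0 were called, against 0.00589% of all tested genes, which is the single gene LINC02029, a long non-coding RNA that lies outside the pathway and was named after its value was seen. At an unadjusted p under 0.05 the count was also 0 of 10, against 4.37% of all tested genes, and with DESeq2 it was 1 of 10, AXIN2, against 3.10%. The log2 fold changes of the 10 genes had a median of 0.02, with 8 above 0 and 2 below, and the median over all tested genes was -0.0027.

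The sample titles number the replicates without saying that they are pairs. The numbers were taken as pairs because deviations of same-numbered libraries from their group means correlated in these data (0.53, 0.69 and 0.27). That choice was read from the same counts that the blocked fit tests, and 3 libraries per group allow few matchings. The correlations therefore do not establish pairing, and p-values of the blocked fits hold only if the numbers are true pairs. A fit with the number as a block called 0 of the 10 genes, against 1.18% of all tested genes (51 higher and 150 lower). At any fold change, 1 of the 10, AXIN2, passed an adjusted p of 0.05 in the blocked fit, against 4.36% of all tested genes. At an unadjusted p under 0.05, AXIN2 and RNF43 passed in the blocked fit, 2 of 10, against 19.9%. These shares are over all directions. The count of LMB+auxin libraries lying wholly above the LMB libraries was 1 of 10 (AXIN2), against 4.90% of tested genes, and wholly below was 0 of 10, against 6.63%.

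**Figure D2:**
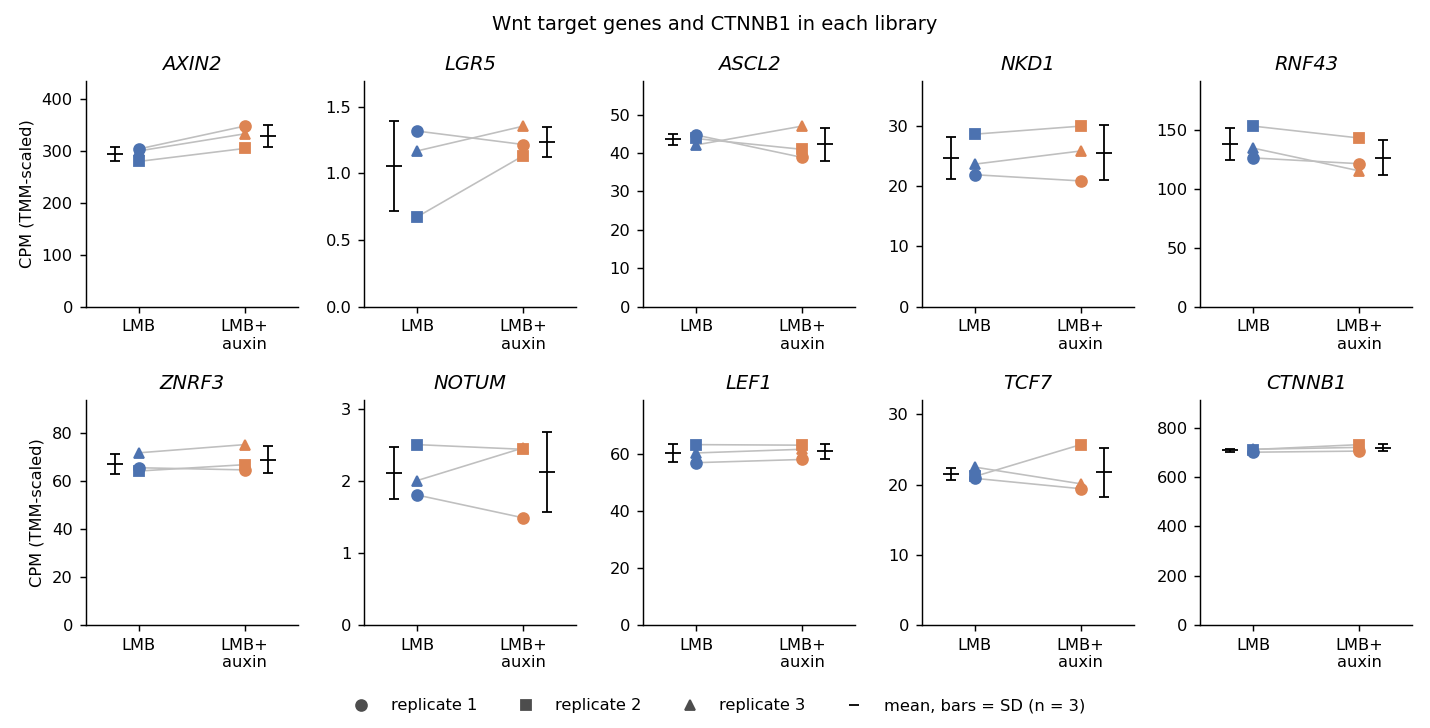
CPM of each gene in each library, from 0, with grey lines joining libraries of the same replicate number; the black bars are the group mean and SD (n = 3). Only in the AXIN2 panel do the LMB+auxin points all lie above the LMB points, at 305.1 to 348.2 against 280.0 to 304.0 CPM.

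ASCL2 is a basic helix-loop-helix transcription factor that maintains intestinal stem cell identity and is itself a target of the pathway. The gene (ENSG00000183734) lies on chromosome 11 from 2268498 to 2270588, minus strand, in GRCh38 and has 2 exons in its canonical transcript. Its CPM was 44.71, 43.80 and 42.11 in LMB replicates 1 to 3 and 38.87, 40.97 and 47.02 in LMB+auxin replicates 1 to 3. The groups overlapped, since the lowest of the 3 LMB libraries lay above 2 of the LMB+auxin libraries and below the third. The means were 43.5 ± 1.32 and 42.3 ± 4.23 CPM (SD, n = 3 each), with a log2 fold change of -0.04 (SE 0.084, 95% interval -0.23 to 0.15) (edgeR adjusted p 0.972). The blocked value was also -0.04 (adjusted p 0.727). Within numbers the differences were -0.20, -0.10 and 0.16 on the log2 scale, so 2 pairs were lower and 1 was higher. The 95% interval did not reach a 1.3-fold change either way. Counts behind these values were 1151 to 1514 per library. The paper counts ascl2 among transcripts strongly lowered after TPR depletion, in experiments it does not describe as using Leptomycin B. The values here cover only cells under Leptomycin B and hold no measure of TPR protein. They do not test that result.

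Over the 6 libraries, the genes whose CPM moved most like ASCL2 were AP1M1 (Pearson r 0.989), MYEOV (0.987) and COG8 (0.985). The likeness is across 6 libraries that share their scaling, 13 of the tested genes had an r above 0.95, and no test is attached to it. None of the 3 is one of the 10 genes. The highest r of ASCL2 with another of the 10 was 0.56, with NOTUM, and its r with LGR5 was 0.05.

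LGR5, the receptor for R-spondins and the best known marker of crypt base stem cells, was the gene with the fewest reads. The LMB libraries held 38, 21 and 42 reads and the LMB+auxin libraries 36, 33 and 43. In CPM this was 1.317, 0.673 and 1.168 against 1.216, 1.132 and 1.354, with overlapping groups. LMB replicate 2 was the low library. The log2 fold change was 0.23 (SE 0.26, 95% interval -0.34 to 0.81), so a 1.3-fold rise lay within the interval. Without LMB replicate 2 the value was 0.005, and without LMB replicate 1 it was 0.41. The spread between the LMB libraries was 32.0% of the mean, against a counting error of 16.8% for a read count of this size. In LMB+auxin the spread was 9.07%, below that error.

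AXIN2 encodes the scaffold of the destruction complex that is induced by beta-catenin and limits it, and it is often used as the readout of the pathway. It (ENSG00000168646) lies on chromosome 17 from 65528563 to 65561648, minus strand, in GRCh38, with 11 exons in its canonical transcript. It stood at 304.0, 280.0 and 300.2 CPM in LMB and 348.2, 305.1 and 333.3 CPM in LMB+auxin, so every LMB+auxin library was above every LMB library. With means of 294.7 ± 12.9 and 328.9 ± 21.9 CPM (SD, n = 3 each), the difference was 11.6%, a log2 fold change of 0.16 (SE 0.072, 95% interval -0.003 to 0.32), and the edgeR adjusted p was 0.954. The exact permutation p, two-sided, was 0.10, the smallest that 3 against 3 libraries can give. Within numbers AXIN2 was higher by 0.20, 0.12 and 0.15 on the log2 scale. That 3 of 3 pairs went the same way follows from the groups not overlapping, whatever the pairing.

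With the replicate block, the AXIN2 log2 fold change was 0.16 (SE 0.044, 95% interval 0.07 to 0.24) and the edgeR adjusted p was 0.0194, at a size below the 1.3-fold that a call needed. DESeq2 with the block gave an adjusted p of 0.0417. Leaving out a pair of libraries from the blocked fit gave an adjusted p of 0.0206 without pair 1, 0.125 without pair 2 and 0.385 without pair 3. The log2 fold change in those fits was 0.14, 0.18 and 0.17, so AXIN2 rose in the blocked fit with all libraries, and without pair 2 or pair 3 its size was no smaller while the adjusted p missed the threshold.

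A protein-coding gene without a symbol, ENSG00000266076, shares 1316 exon bases on the same strand with AXIN2, or 25.3% of AXIN2's exon bases. It went from 119.3 ± 3.89 to 133.0 ± 5.49 CPM (SD, n = 3 each), which is 0.16 higher on the log2 scale, not past the threshold in edgeR (adjusted p 0.954, or 0.0355 in the blocked fit). Reads in the shared exons cannot be assigned to one of the genes from these counts, so the AXIN2 level and the overlapping gene's level may not be independent.

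**Figure D3:**
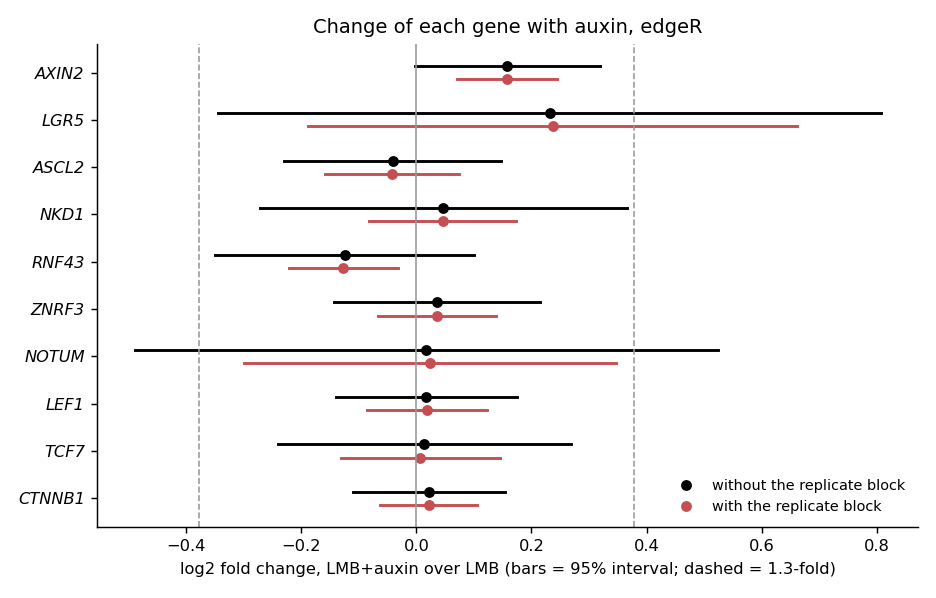
Log2 fold change of each gene, LMB+auxin over LMB, with 95% intervals from edgeR without (black) and with (red) the replicate block; dashed lines mark 1.3-fold. Without the block the interval includes 0 for all 10 genes, and with it the intervals of AXIN2 and RNF43 leave 0 out.

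RNF43 and ZNRF3 encode membrane E3 ubiquitin ligases that remove Frizzled receptors from the cell surface, and both are targets of beta-catenin. RNF43 stood at 126.1, 153.1 and 134.4 CPM in LMB and 121.2, 143.0 and 115.1 CPM in LMB+auxin. The groups overlapped, but each LMB+auxin library was below the LMB library of its number, by 0.06, 0.10 and 0.22 on the log2 scale. The log2 fold change was -0.12 (SE 0.10, 95% interval -0.35 to 0.10, edgeR adjusted p 0.954), and with the block -0.13 (adjusted p 0.110). In the blocked fit, RNF43 was at -0.16 without pair 1 (adjusted p 0.0121), at -0.14 without pair 2 (0.317) and at -0.07 without pair 3 (0.755). Leaving out single libraries from the fit without the block moved it to between -0.036 (LMB replicate 2 left out) and -0.22 (LMB+auxin replicate 2 left out). RNF43 shares 345 exon bases, 5.45% of its own, with the antisense gene TSPOAP1-AS1.

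ZNRF3 was at 65.40, 64.03 and 71.60 CPM in LMB and at 64.51, 66.67 and 75.01 CPM in LMB+auxin. The groups overlapped, replicate 3 was highest in both, and the log2 fold change was 0.04 (SE 0.080). Per kb, RNF43 exceeded ZNRF3 in all 6 libraries, by 2.07 to 2.64 times in LMB and by 1.69 to 2.37 times in LMB+auxin.

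NKD1 binds Dishevelled and dampens the signal upstream of the destruction complex. It stood at 21.94, 28.69 and 23.70 CPM in LMB and at 20.91, 30.03 and 25.89 CPM in LMB+auxin. Replicate 2 was highest and replicate 1 lowest in both groups, and the log2 fold change was 0.05 (SE 0.14). NOTUM is a secreted enzyme that removes the lipid from Wnt ligands. Its 44 to 78 reads per library gave 1.80, 2.50 and 2.00 CPM in LMB and 1.49, 2.44 and 2.46 CPM in LMB+auxin. The NOTUM log2 fold change was 0.02 with a 95% interval of -0.49 to 0.52, which reaches past 1.3-fold in both directions.

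LEF1 and TCF7 encode HMG-box proteins that bind DNA at Wnt target genes and take up beta-catenin there. LEF1 was at 56.84, 63.16 and 60.25 CPM in LMB and at 57.96, 62.97 and 61.53 CPM in LMB+auxin. The groups overlapped closely, and the log2 fold change was 0.02 (SE 0.070, 95% interval -0.14 to 0.17). TCF7 was at 20.90, 21.16 and 22.50 CPM in LMB and at 19.42, 25.70 and 20.12 CPM in LMB+auxin, where replicate 2 alone stood above all others. The TCF7 log2 fold change was 0.01 (SE 0.11). Per kb, LEF1 exceeded TCF7 by 4.61 to 5.76 times in the 6 libraries. LEF1 shares 279 exon bases with LEF1-AS1 and TCF7 shares 210 with SKP1, both on the opposite strand.

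CTNNB1, whose protein is the target of the destruction complex, was the steadiest of the 10 and the most deeply counted. Its CPM was 700.7, 711.6 and 712.6 in LMB and 705.2, 731.4 and 720.2 in LMB+auxin. The groups overlapped, while 3 of 3 pairs were higher with auxin. The log2 fold change was 0.02 (SE 0.059, 95% interval -0.11 to 0.15), and the spread between libraries was 0.929% of the mean in LMB and 1.83% in LMB+auxin. These are RNA levels and say nothing of the beta-catenin protein.

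For 8 of the 10 genes the 95% interval excluded a 1.3-fold change in both directions. The exceptions were LGR5, for a rise, and NOTUM, for both directions, which also held the fewest reads. With the block NOTUM joined the 8, and LGR5 did not.

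Of the 10 genes, 5 were highest in the same replicate number in both groups. For 9 of 10, the range between the means of the 3 replicate numbers was larger than the difference between the groups. The exception was AXIN2, with a range of 0.155 against a difference of 0.157 on the log2 scale. A range over 3 means tends to exceed a difference of group means in unpaired libraries too. This count therefore does not show pairing. Neither count was set against all tested genes. NKD1, RNF43 and LEF1 were highest in replicate 2 in both groups, ZNRF3 was highest in replicate 3 and AXIN2 in replicate 1. NKD1 spanned 0.45 on the log2 scale between numbers, against a difference of 0.04 between groups. In NKD1, the spread within a group was 14.1% in LMB and 17.8% in LMB+auxin, above its counting error of 3.57%.

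**Figure D4:**
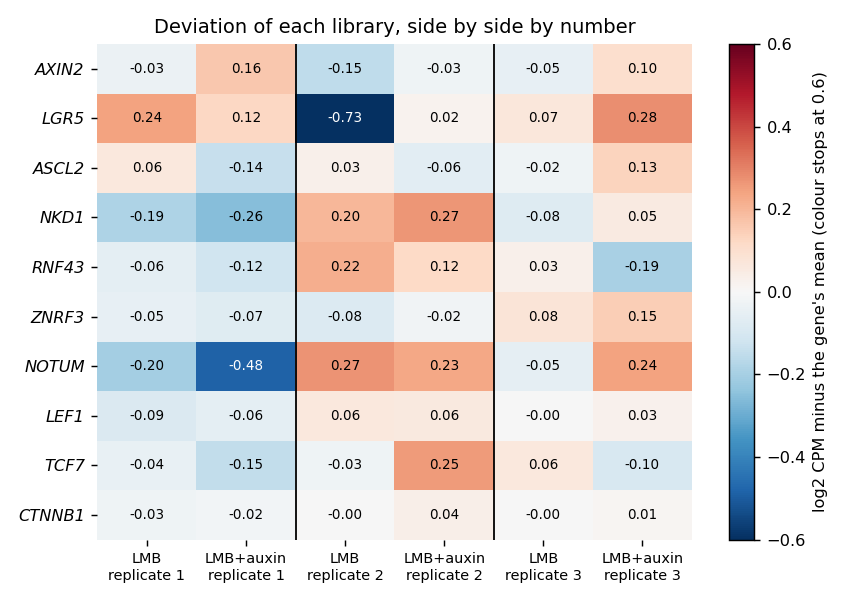
Log2 CPM of each gene minus its mean over the 6 libraries, with the LMB and LMB+auxin libraries of each replicate number side by side. NKD1 is positive in both replicate 2 libraries (0.20 and 0.27) and negative in both replicate 1 libraries (-0.19 and -0.26), and LGR5 is lowest in LMB replicate 2 (-0.73).

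The other genes of the pathway were read in lists by role. None of the 6 lists held a call, against 0.00589% of all tested genes without the replicate block and 1.18% with it. FZD7, TCF7L2 and DKK1 stand in more than 1 list. Among 19 other targets, 16 were tested, 10 with a log2 fold change above 0 and 6 below, and the median was 0.03.

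The targets of highest level per kb were CCND1, a driver of the G1 to S transition, BMP4, a ligand of the BMP pathway, and SOX9, a transcription factor of crypt cells. CCND1 went from 681.2 ± 55.4 to 703.6 ± 54.8 CPM (SD, n = 3 each), with a log2 fold change of 0.05, and SOX9 had a log2 fold change of -0.15. BMP4 was at 216.3, 193.5 and 241.3 CPM in LMB and at 257.5, 261.3 and 292.9 CPM in LMB+auxin, so its groups did not overlap. Nor did those of PROX1, at 3.71, 4.07 and 3.26 CPM in LMB and 4.90, 4.70 and 4.44 CPM in LMB+auxin. Thus 2 of the 16 tested targets were wholly higher with auxin, against 4.90% of all tested genes. Wholly lower were 0 of 16, against 6.63%. At an unadjusted p under 0.05 in the blocked edgeR fit, 3 of the 16 were higher and 4 lower. Over all 16974 tested genes, 1375 were higher and 2001 lower, 19.9% in all. In that fit the higher were BMP4, PROX1 and CD44 (log2 fold change 0.12). The lower were EPHB3, SOX9 (-0.14), FZD7 (-0.18) and SP5 (-0.21). PROX1 stood 0.35 higher on the log2 scale, the highest of the 16, and was not called (edgeR adjusted p 0.954, or 0.0776 with the block). BMP4 had a log2 fold change of 0.32 (SE 0.091), and its edgeR adjusted p moved from 0.954 to 1.0e-07 when the block was added. That is below 1.3-fold, and BMP4 rose at any fold change in the blocked fit. EPHB3, a receptor of the ephrin system that positions crypt cells, fell in the same fit by 0.29 on the log2 scale (adjusted p 0.0064), at 19.69, 22.12 and 21.14 CPM in LMB against 14.49, 19.90 and 17.38 CPM. EPHB3 was below in 3 of 3 pairs, and its groups overlapped. EPHB3's value without the block was -0.28 (adjusted p 0.954). The EPHB3 threshold was not met in DESeq2 with the block (adjusted p 0.25) or in the blocked edgeR fit without pair 1 (0.0755) or pair 3 (0.169), and it was met without pair 2 (0.0149). BMP4 passed in each of those 4 fits, with adjusted p from 2.0e-09 to 0.0058.

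Of the 11 genes of the destruction complex, all were tested, and their median log2 fold change was 0.05. The highest per kb were CSNK1A1, a casein kinase that primes beta-catenin, with 0.05, FBXW11, with 0.10, and TNKS2, a tankyrase that marks AXIN for removal, with 0.09. BTRC, the F-box protein that recognises phosphorylated beta-catenin, was at 19.93, 21.26 and 19.67 CPM in LMB and at 25.33, 23.51 and 22.17 CPM in LMB+auxin. FBXW11 was at 63.74, 66.33 and 62.06 CPM in LMB and at 71.16, 67.02 and 67.08 CPM in LMB+auxin. These 2 of the 11 were wholly higher with auxin, against 4.90% of all tested genes. Wholly lower were 0 of the 11, against 6.63%. BTRC rose in the blocked fit at an adjusted p of 0.037, with a log2 fold change of 0.22, and did not pass without the block (adjusted p 0.954). BTRC also did not pass in DESeq2 with the block (adjusted p 0.362) or in the blocked edgeR fit without pair 1 (0.240), pair 2 (0.0894) or pair 3 (0.244).

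Of 11 nuclear partners, 9 were tested, with a median log2 fold change of -0.04. PYGO2, which helps beta-catenin activate genes, had a log2 fold change of -0.17, and the Groucho-type repressors TLE4 and TLE1 had -0.07 and 0.01. Of 17 receptor and Dishevelled genes, 15 were tested, 10 below 0 and 5 above, with a median of -0.08. DVL1, DVL2 and the Frizzled FZD6 had log2 fold changes of -0.09, -0.08 and -0.09. Of 25 ligand and secretion genes, 8 were tested and 3 had no read in any library (WNT3A, RSPO1 and RSPO4).

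WLS, the carrier that takes Wnt proteins to the surface, was at 65.5 ± 2.75 and 68.4 ± 2.95 CPM (SD, n = 3 each), with a log2 fold change of 0.06. WNT10A and WNT5B, the ligands of highest level per kb, had log2 fold changes of -0.23 and -0.30. All 3 WNT5B libraries with auxin were below all 3 without (6.74 ± 0.868 against 5.45 ± 0.529 CPM). The same held for WNT3 (8.44 ± 0.418 against 6.89 ± 0.388 CPM), with a log2 fold change of -0.29. These were 2 of the 8 tested genes of the list, against 6.63% of all tested genes. WNT5B and WNT3 were not called (edgeR adjusted p 0.954 for each, and 0.0742 and 0.0562 with the block). Of 10 secreted inhibitors only DKK3 passed the filter, at 1.98 ± 0.183 and 1.96 ± 0.309 CPM. FRZB and DKK1 were below it, with 6 to 15 and 7 to 16 reads per library.

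**Figure D5:**
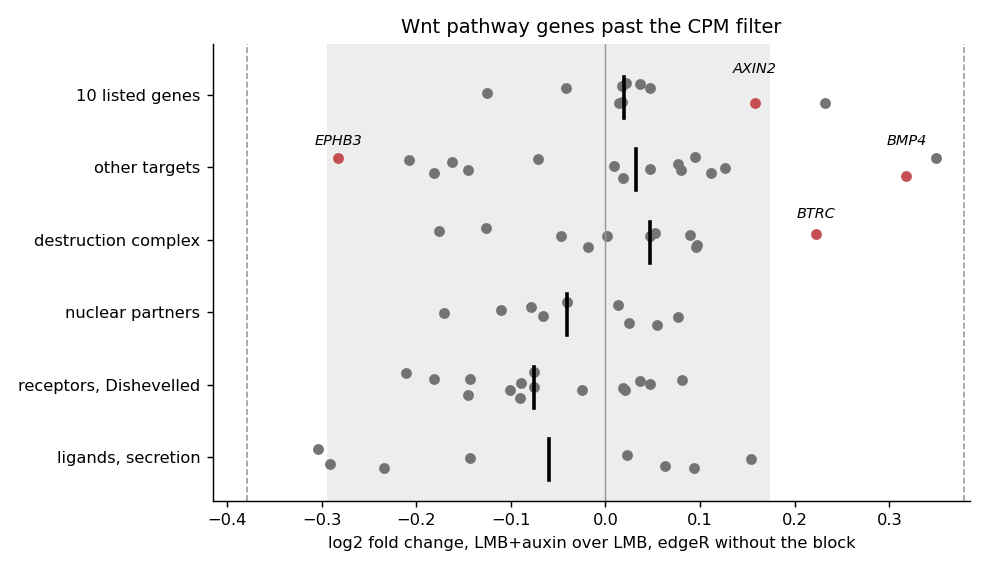
Log2 fold change, LMB+auxin over LMB, of each tested Wnt pathway gene by role, with the list median as a black bar; the grey band spans the 5th to 95th percentile of all tested genes, and dashed lines mark 1.3-fold. Red points passed the adjusted threshold in the blocked fit at any fold change: AXIN2, BMP4, EPHB3 and BTRC.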

How the data were processed

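RNA was rRNA-depleted, strand-specific total RNA sequenced in pairs, and the groups and replicate numbers were taken from the labels; the study describes 3 independent biological replicates. The authors aligned the reads and deposited whole-number counts per Ensembl gene in one table. The submitters' processing notes name STAR 2.6.1c, featureCounts 1.5.2 and CASAVA 1.8.2 and the build GRCh38. The strand setting of the counting and the handling of reads that match several genes are not given in the sources used here. Counts in exons shared by overlapping genes may therefore be given to each gene or to none.

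Genes with a CPM above 1 in at least 3 of 6 libraries were tested with edgeR 4.0.16 (R 4.3.3), TMM scaling and the quasi-likelihood test, p-values adjusted by Benjamini-Hochberg over all 16974 genes; the 1.3-fold limit follows the study's methods. Depth was 28261903 to 35992425 counts, and 3 counts correspond to 0.0835 to 0.104 CPM. Intervals of fold changes are 95% intervals of the edgeR fit. The deviations of same-numbered libraries from their group means correlated at 0.53, 0.69 and 0.27, so the numbers were taken as pairs. The labels do not state this pairing. The fit with the replicate as a block is printed beside the other where it differs. No pair of libraries had the same counts throughout. The statistical scripts were tested on simulated data. Alternatives were DESeq2 1.42.0, other scalings, other filters, the block and leaving out libraries. Symbols came from GENCODE 44 and matched 98.1% of identifiers. Genes named beside the 10 were, in each list, the 3 of highest CPM per kb, any called in edgeR, TPR and the 3 most correlated with ASCL2. EPHB3 and BTRC, which passed the adjusted threshold with the block at any fold, were named after their values were seen. So were PROX1 and WNT3, whose groups did not overlap, and SP5, for its promoter. CD44 and FZD7 were named for their unadjusted p in the blocked fit. The genes and lists were chosen with earlier results of these data known.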

Additional observations from a re-analysis of the deposited data

How the results depend on the processing

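None of the 10 genes was called in any of the 16 alternatives. Of 158 recomputed log2 fold changes of the 10, 142 kept their sign and 16 did not, and 4 genes (AXIN2, LGR5, RNF43 and CTNNB1) never changed sign. The number of genes called over all tested genes was 1, and it was 201 with the replicate block, 11 with DESeq2, 0 with library size alone, 39 with no filter on low counts, 31 with DESeq2 and the block, and 133, 158 and 134 in the blocked fit without pair 1, 2 or 3. Leaving out 1 library in turn gave 0 to 5, the highest without LMB+auxin replicate 2. The number of the 10 genes with an unadjusted p under 0.05 was 0, against 4.37% of all tested genes. It was 2 with the block (19.9% of all genes), 1 with DESeq2 (3.10%), 1 with RLE scaling (4.35%), 1 with no filter (4.08%), 2 with DESeq2 and the block (7.92%), and 2, 2 and 1 in the blocked fit without pair 1, 2 or 3 (14.5%, 15.7% and 11.5%). Leaving out 1 library gave 0 to 2, the highest again without LMB+auxin replicate 2 (AXIN2 and RNF43, 8.94% of all genes). The replicate block changed no call of the 10.

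Leaving out 1 library, the log2 fold change ranged from 0.11 to 0.21 for AXIN2, 0.005 to 0.41 for LGR5, -0.22 to -0.036 for RNF43, 0.010 to 0.035 for CTNNB1, -0.12 to 0.015 for ASCL2, -0.082 to 0.17 for NKD1, -0.025 to 0.087 for ZNRF3, -0.097 to 0.22 for NOTUM, -0.021 to 0.062 for LEF1, -0.12 to 0.088 for TCF7, -0.013 to 0.11 for CCND1, -0.037 to 0.22 for TNKS2, -0.24 to 0.11 for TLE4, -0.064 to 0.097 for TLE1 and -0.12 to 0.095 for DKK3.
With library size alone, TCF7 was at -0.00048. In the blocked fits, ASCL2 was at 0.036 and DKK3 at 0.022 without pair 1, TCF7 was at -0.13 without pair 2, and NOTUM was at -0.13 and DKK3 at 0.0027 without pair 3. The cause of these changes of sign was not tested. LGR5 and NOTUM had the fewest reads, 21 to 78 per library, and the widest intervals. In LMB their spread between libraries was above the counting error (32.0% against 16.8% for LGR5, and 17.1% against 12.3% for NOTUM). In LMB+auxin the spread was 9.07% for LGR5, below that error, and 26.1% for NOTUM, above it.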
